A study of Mus musculus with 9 samples.

Results

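The comparison set 3 libraries of small RNA from mouse eyes at day 3 after laser injury against 3 libraries from control mice. It covered all 200 listed tRNA-derived fragments in these 6 of the series' 9 libraries, chosen by their count columns and sample titles. All tissue came from C57BL/6 mice and was the complex of retinal pigment epithelium (RPE, the pigmented layer behind the retina), choroid (the vessel layer beneath it) and sclera (the outer wall). The treatment text, the same for lasered and control samples, gives mice of 6 to 8 weeks; a 532 nm laser at 110 mW, with a pulse of 100 ms, burned spots in each eye under avertin anaesthesia, and a bubble marked the break in Bruch's membrane, on which the RPE rests. The control mice were labelled as control, and the labels do not say separately how old they were or whether they were anaesthetised. The burns cover small spots, while the whole complex was collected, so burned and unburned tissue and any infiltrating cells were measured together. The labels do not say how many eyes or animals a library holds, or that libraries came from separate animals. Each p-value thus measures the spread between these libraries alone, which may be technical. In such tissue, fewer cells of a type and less RNA per cell cannot be told apart. The table lists tRNA fragments only, so it holds no marker by which the labelled tissue could be checked.

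Transfer RNAs carry amino acids to the ribosome and are among the most abundant RNAs of a cell. Nucleases, of which angiogenin is the best known under stress, cut them into stable fragments; angiogenin cuts in the anticodon loop, also drives vessel growth, and leaves a 5' and a 3' part known as tiRNAs. Shorter pieces from either end of the mature tRNA are called tRF-5 and tRF-3, and tRF-3 end in the CCA to which the amino acid is attached. The tRF-1 class is different: it is the 3' trailer, cut off while a precursor tRNA is matured. Fragment names here give the class, the first and last nucleotide, the amino acid and the anticodon, and chrM marks tRNAs of the mitochondrial genome; in trailer names, T stands before the last nucleotide.

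The sequences of the fragments on which the results turn are shown first, at least one for each isoacceptor (the tRNAs of one amino acid and anticodon) and side with a changed fragment, and the most abundant of each class. Those from the 5' side are as follows; capitals mark bases of the anticodon loop, in those that reach it.
tRF-1:29-Gly-GCC-1: gcatgggtggttcagtggtagaattctcg
tRF-1:31-Gly-GCC-2-M3: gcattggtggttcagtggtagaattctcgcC
tiRNA-1:33-Gly-GCC-2-M3: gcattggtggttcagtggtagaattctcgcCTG
tRF-1:32-Gly-CCC-2: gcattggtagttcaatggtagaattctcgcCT
tRF-1:32-Val-CAC-1: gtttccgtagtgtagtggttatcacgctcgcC
tRF-1:32-Val-AAC-5: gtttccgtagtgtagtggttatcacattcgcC
tRF-1:32-Glu-TTC-3: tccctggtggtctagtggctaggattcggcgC
tRF-1:32-Glu-CTC-2: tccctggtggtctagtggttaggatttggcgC
tRF-1:32-Pro-AGG-1-M3: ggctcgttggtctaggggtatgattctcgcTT
tRF-1:30-Lys-CTT-3: gcccggctagctcagtcggtagagcatgag
tRF-1:31-iMet-CAT-1-M2: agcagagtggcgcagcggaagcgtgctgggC
tRF-1:16-Gly-TCC-1: gcgttggtggtatagt
tRF-1:16-Ala-CGC-3-M3: ggggatgtagctcaga
tRF-1:16-Leu-AAG-2-M3: ggtagtgtggccgagc
tRF-1:16-Ser-GCT-1-M4: gacgaggtggccgagt
tRF-1:15-Ser-GCT-1-M4: gacgaggtggccgag
tRF-1:29-chrM.Ser-GCT: aagaaagattgcaagaactgctaattcAT
tRF-1:22-chrM.Ser-GCT: aagaaagattgcaagaactgct
tRF-1:24-chrM.Ser-TGA: gagaaagacatataggatatgaga

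Fragments of the 3' side follow, with the closing CCA in capitals. In all 37 listed 3' fragments the last letters were CCA. These letters are not always a full CCA tail. In tiRNA-32:69-chrM.His-GTG-M1-37:C>A the CC is the end of the gene mt-Th and only the A follows it. In tiRNA-32:70-chrM.His-GTG-M1-38:C>A, which is not printed, only CA follows the gene.
tRF-54:75-Ala-CGC-1-M2: tcgatccccggcatctccaCCA
tRF-58:75-Ala-CGC-1-M4: tccccggcatctccaCCA
tRF-58:75-Ala-AGC-2-M2: tccccggcacctccaCCA
tRF-53:74-Gly-CCC-2-M4: tcgattcccggccaatgcaCCA
tRF-57:74-Gly-CCC-2-M6: ttcccggccaatgcaCCA
tRF-68:85-Leu-AAG-1-M4: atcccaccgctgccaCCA
tRF-59:75-Cys-GCA-2-M4: tccgggtgccccctCCA
tRF-59:75-Gln-CTG-2: tctcggtggaacctCCA
tRF-60:76-Phe-GAA-1-M3: cccgggtttcggcaCCA
tRF-58:75-Trp-CCA-1-M5: atcacgtcggggtcaCCA
tRF-54:70-chrM.Trp-TCA: aagtttaacttctgCCA
tiRNA-32:69-chrM.His-GTG-M1-37:C>A: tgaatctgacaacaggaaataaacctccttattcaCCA
tiRNA-32:71-chrM.His-GTG: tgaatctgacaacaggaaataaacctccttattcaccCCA

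The trailers and the only internal fragment come last. All 16 trailers closed with at least 2 T, in capitals. In nuclear tRNA genes such a run of T is where RNA polymerase III stops; 1 of the 16, the mitochondrial Gly-TCC trailer, is not made by that enzyme.
tRF-+1:T32-Thr-CGT-1: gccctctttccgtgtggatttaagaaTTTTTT
tRF-+1:T23-Arg-ACG-1-3: ttgggactggtactcctttaTTT
tRF-+1:T16-iMet-CAT-1: tcggaggctttgTTTT
tRF-30:43-Gln-CTG-1-M5: gactctgaatccag

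The day 3 libraries held 2012274, 2138312 and 1638381 mapped reads and the control libraries 1223377, 1749792 and 2155977. Of the mapped reads, listed fragments took 62.1, 58.3 and 56.04% in the day 3 libraries, against 75.8, 76.03 and 75.7% in the control libraries. Values in CPM, reads scaled to the mapped total of the library, therefore describe a smaller listed part at day 3; the reads outside the list were not analysed here. Pearson correlations of log2 CPM between libraries were 0.954 to 0.972 within day 3, 0.963 to 0.971 within the controls and 0.882 to 0.940 between the groups.

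By the median over listed fragments, opposite ends of the tRNA moved in opposite directions at day 3. This counts fragments, not reads. The summed Gly-GCC 5' fragments, which held most listed reads, had lower CPM in every day 3 library than in every control. Of 200 fragments, 43 passed the test (21.5%; edgeR quasi-likelihood test, adjusted p below 0.05): 20 were higher at day 3 (10%) and 23 lower (11.5%). All 20 that rose were among the 146 fragments of the 5' side, which had a median log2 fold change of 0.39 and 3 members that fell. Of the 146, 94 had a log2 fold change above 0. Among the 37 fragments of the 3' side none rose and 14 fell, with a median of -1.16. Of the 16 trailers 5 fell, and every one of the 16 had a log2 fold change below 0 (median -0.98). Without control replicate 1 the trailer median was -0.58 and 1 trailer lay above 0, and without day 3 replicate 3 it was -1.34; 5 trailers fell in each of these fits. The single internal fragment fell as well. The median over all fragments was -0.039. In 44 fragments all day 3 values exceeded all control values (22% of the list), and 43 of these were 5' fragments. In 39 fragments all day 3 values were under all control values (19.5%): 21 of the 3' side, 11 of the 5' side and 7 trailers.

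The medians by side kept their sign under each scaling tried, while the number of calls moved. Over the 4 scalings other than the one used here, the median of the 5' fragments ran from 0.40 to 0.77, that of the 3' fragments from -1.12 to -0.74 and that of the trailers from -0.93 to -0.56. Scaling to the listed counts alone was tried after seeing the data and moved the median of all fragments up by 0.41; 5' fragments then lay 0.40 above that median and 3' fragments 1.11 below it, with 49 fragments higher and 14 lower, of which 6 were 3' fragments and 5 trailers, and 1 trailer then lay above 0. That scaling took the call from 9 fragments that had fallen, 8 of the 3' side and tRF-1:31-iMet-CAT-1-M2. Mapped totals without factors took it from tRF-1:29-Lys-CTT-3, tRF-1:32-Lys-CTT-2, tRF-1:32-Val-CAC-4, tRF-1:16-Leu-AAG-2-M3, tRF-54:75-Ala-AGC-2 and tRF-54:70-chrM.Trp-TCA, and limma-voom (another test for counts) from tRF-54:70-chrM.Trp-TCA, tRF-1:16-Leu-AAG-2-M3, tRF-30:43-Gln-CTG-1-M5 and tRF-1:29-Val-CAC-4. Without control replicate 3 there were 22 calls, and without day 3 replicate 2 there were 25. Of the 43 fragments, 17 passed in every alternative that tested them.

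**Figure D1:**
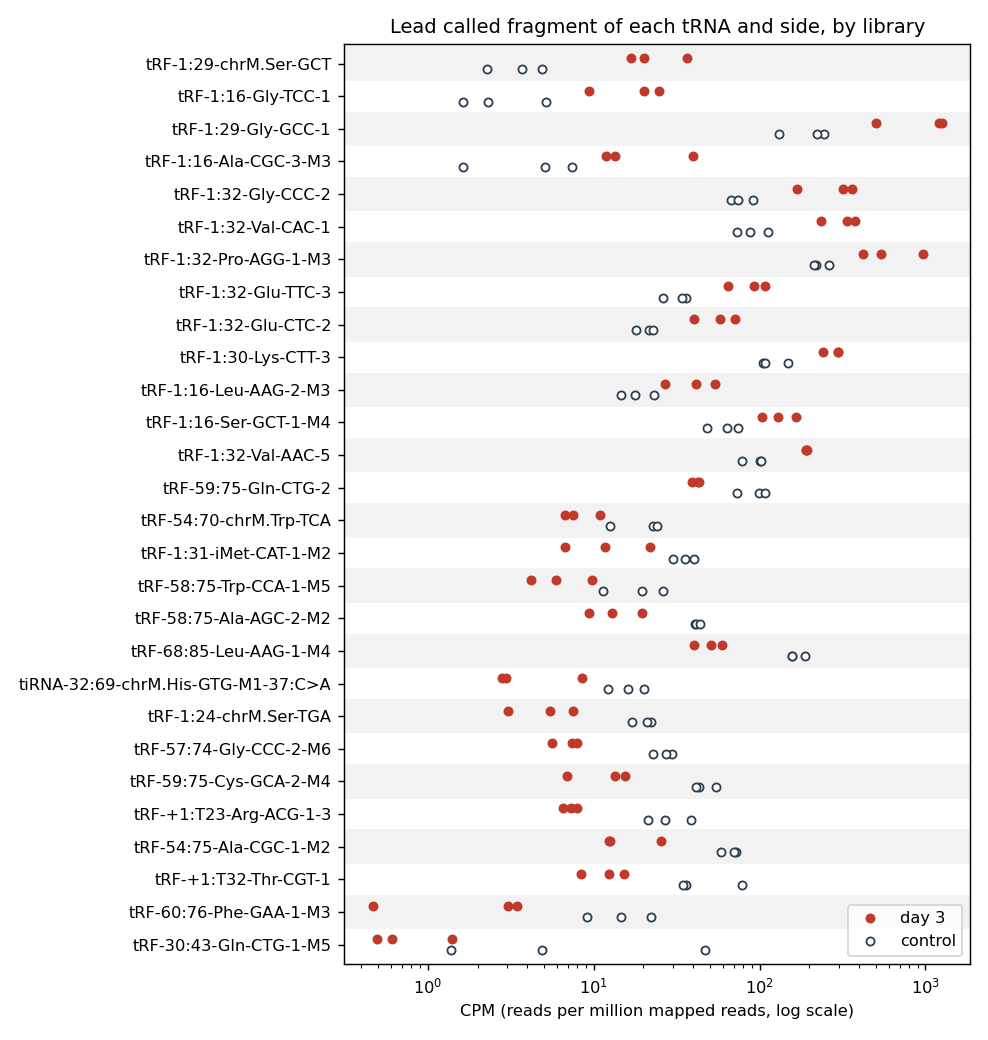
CPM on a log scale in each library, for the fragment with the smallest p of each tRNA and side that had one past the threshold; filled points are the 3 day 3 libraries and open points the 3 control libraries. In 27 of the 28 rows, which were chosen by the test on these libraries, the groups do not overlap; the exception is the internal Gln-CTG fragment.

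The glycine tRNAs gave 5 of the fragments that rose. These were 2 of 15 listed 5' fragments of Gly-GCC, 2 of 11 of Gly-CCC and 1 of 5 of Gly-TCC. The 1 listed 5' fragment of Gly-ACC did not pass. Over all tRNAs 20 of 146 5' fragments rose, so this count does not set glycine apart. tRF-1:29-Gly-GCC-1 stood at 1202, 1257 and 504 CPM in the day 3 libraries, against 131, 245 and 223 CPM in the control libraries. Day 3 replicate 3 was the lowest of its group and still lay above each control (log2 fold change 2.31, SE 0.438, edgeR adjusted p = 0.00271). The form of 32 nt from the same tRNA, tRF-1:32-Gly-GCC-1, also rose (log2 fold change 1.24), with 3237, 4105 and 3431 CPM in the day 3 libraries, against 1512, 1452 and 1468 CPM in the control libraries. Gly-CCC is a second glycine tRNA, which reads another glycine codon. Its tRF-1:32-Gly-CCC-2 had 317, 169 and 359 CPM in the day 3 libraries, against 91.5, 66.9 and 74.2 CPM in the control libraries (log2 fold change 1.81, SE 0.398, edgeR adjusted p = 0.00402). Day 3 replicate 2 was the lowest of the day 3 libraries and still above all controls. Its neighbour of 33 nt, tiRNA-1:33-Gly-CCC-2, had a log2 fold change of 1.66. A short fragment of Gly-TCC, tRF-1:16-Gly-TCC-1, was scarce: 9.44, 24.8 and 20.1 CPM in the day 3 libraries, against 1.63, 5.14 and 2.32 CPM in the control libraries (log2 fold change 2.50, SE 0.628, edgeR adjusted p = 0.00770). Leaving out single libraries, tRF-1:32-Gly-GCC-1 missed the threshold at 1.14 (adjusted p = 0.0547) without day 3 replicate 2, 1.11 (adjusted p = 0.104) without control replicate 2 and 1.21 (adjusted p = 0.0934) without control replicate 3; the other 4 passed each time.

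The Gly-GCC-1 fragments can be set against those of Gly-GCC-2-M3, which have the same length and differ by T5G alone (the base of Gly-GCC-2-M3, the position counted from the first nucleotide, then the base of Gly-GCC-1). This ratio within a library is free of the scaling. As a share of Gly-GCC-2-M3 counts, Gly-GCC-1 counts of 29 nt were 15.5, 11.1 and 16.1% in the day 3 libraries, against 7.01, 6.01 and 4.74% in the control libraries. At 31 nt, the most abundant length, they were 8.42, 5.66 and 8.36% in the day 3 libraries, against 2.68, 2.599 and 3.06% in the control libraries. At 33 nt they were 3.695, 2.44 and 2.41% in the day 3 libraries, against 1.04, 0.864 and 1.04% in the control libraries. The lowest day 3 share exceeded the highest control share at each of the 6 lengths from 28 to 33 nt (exact permutation p = 0.1 at each length, two-sided, the smallest that 3 against 3 allows). The 6 lengths come from the same libraries and are not separate replicates. Gly-GCC-2-M3 itself had no fragment past the threshold. Whether base errors in reads of the abundant tRNA add to the rare one was not tested.

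**Figure D2:**
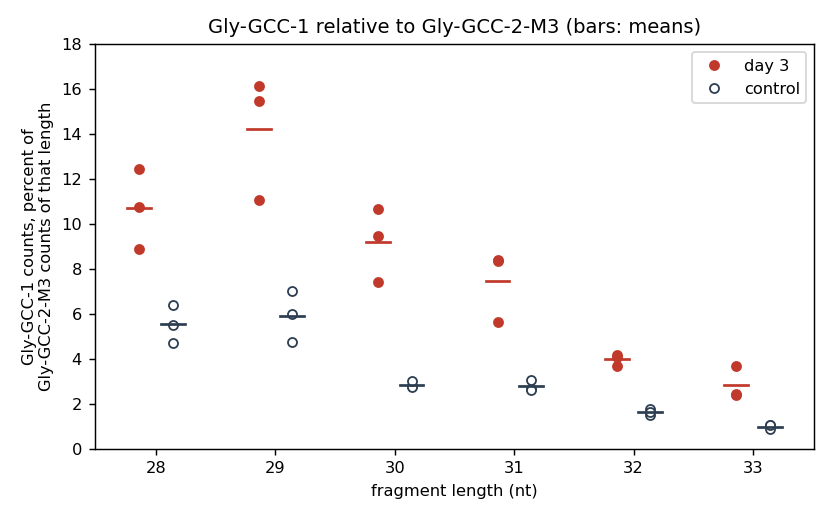
Counts of Gly-GCC-1 fragments as a percent of Gly-GCC-2-M3 counts of the same length (vertical axis), by length in nt (horizontal axis); filled points are day 3 libraries, open points control libraries and bars the group means. Day 3 libraries lie above control libraries at each length from 28 to 33 nt, and the share is lowest at 33 nt in both groups.

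Valine, glutamate, proline and lysine tRNAs gave most of the other fragments that rose, nearly all of 32 nt. Val-CAC and Val-AAC are valine tRNAs with different anticodons. The listed 34 nt fragments of Val-AAC-1 and Val-CAC-2 differ only at base 34, so tRF-1:32-Val-AAC-1-M2 below cannot tell these tRNAs apart. tRF-1:32-Val-CAC-1 had 338, 234 and 374 CPM in the day 3 libraries, against 73.6, 113 and 87.7 CPM in the control libraries (log2 fold change 1.76, SE 0.391, edgeR adjusted p = 0.00402). tRF-1:32-Val-AAC-5 had 189.8, 192 and 194 CPM in the day 3 libraries, against 78.5, 101 and 102 CPM in the control libraries (log2 fold change 1.01, SE 0.347, edgeR adjusted p = 0.0444). The day 3 values of the Val-AAC-5 fragment were nearly equal and lay above all controls. The most abundant valine fragment, tRF-1:32-Val-AAC-1-M2, rose by 1.002 on the log2 scale, with 8549, 8776 and 8674 CPM in the day 3 libraries, against 3781, 4769.7 and 4169.8 CPM in the control libraries, and tRF-1:32-Val-CAC-4 by 1.07. These 4 sequences are near relatives, each of the rarer 3 differing from tRF-1:32-Val-AAC-1-M2 by 1 base. The ratio to it told them apart: tRF-1:32-Val-CAC-1 was 3.96, 2.67 and 4.31% of it in the day 3 libraries, against 1.95, 2.37 and 2.102% in the control libraries, without overlap. tRF-1:32-Val-AAC-5 was 2.22, 2.18 and 2.24% of it in the day 3 libraries, against 2.08, 2.11 and 2.45% in the control libraries, and tRF-1:32-Val-CAC-4 was at most 0.437% in any of the 6, with overlap for both. The part of base errors was not tested. With any single library left out tRF-1:32-Val-AAC-5 missed the threshold (adjusted p = 0.0548 to 0.154), and so did tRF-1:32-Val-AAC-1-M2 (0.0502 to 0.141). tRF-1:32-Val-CAC-4 missed it in 5 of 6 such fits (adjusted p = 0.0622 to 0.127; it passed without day 3 replicate 3), while tRF-1:32-Val-CAC-1 passed in all 6.

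Of the glutamate tRNAs, tRF-1:32-Glu-TTC-3 had 64.6, 92.6 and 109 CPM in the day 3 libraries, against 26.2, 36.004 and 34.3 CPM in the control libraries (log2 fold change 1.42, SE 0.337, edgeR adjusted p = 0.00543). tRF-1:32-Glu-CTC-2 had 40.3, 57.99 and 70.8 CPM in the day 3 libraries, against 17.98, 21.7 and 22.7 CPM in the control libraries (log2 fold change 1.39, SE 0.357, edgeR adjusted p = 0.00770). In both, day 3 replicate 1 was lowest within its group, and the groups were apart. The sequence of tRF-1:32-Pro-AGG-1-M3 is shared by 3 proline tRNA genes with 3 anticodons, so its count stands for proline tRNAs together. It had 423, 965 and 538 CPM in the day 3 libraries, against 217, 262 and 213 CPM in the control libraries (log2 fold change 1.44, SE 0.388, edgeR adjusted p = 0.0111). Day 3 replicate 2 held the most. Without that library the log2 fold change was 1.03 (adjusted p = 0.0583), and without control replicate 3 it was 1.37 (adjusted p = 0.0676). The Glu-CTC-2 fragment missed the threshold without control replicate 2, at 1.32 (adjusted p = 0.0545).

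Lysine tRNA Lys-CTT had 4 fragments that rose, from 2 parent tRNAs. The one with the smallest p, tRF-1:30-Lys-CTT-3, had 240.0, 296 and 299 CPM in the day 3 libraries, against 105, 147 and 108 CPM in the control libraries (log2 fold change 1.18, SE 0.351, edgeR adjusted p = 0.0195). tRF-1:32-Lys-CTT-3, the most abundant of the 4, had 4939, 5972 and 7351 CPM in the day 3 libraries, against 2640.2, 2523 and 2353 CPM in the control libraries (log2 fold change 1.23). Neither overlapped the controls. tRF-1:29-Lys-CTT-3 (1.30) and tRF-1:32-Lys-CTT-2 (1.11) completed the group. The last differs from tRF-1:32-Lys-CTT-3 by 1 base and never exceeded 0.907% of it, and base errors were not tested. The form of 34 nt, tiRNA-1:34-Lys-CTT-3, did not pass: it had 2212, 1631 and 5105 CPM in the day 3 libraries, against 3781, 7165 and 5918 CPM in the control libraries (log2 fold change -0.95, SE 0.423, edgeR adjusted p = 0.0941). Single libraries left out took the call from tRF-1:30-Lys-CTT-3 without control replicate 1, 2 or 3 (adjusted p = 0.0584 to 0.104) and from tRF-1:32-Lys-CTT-3 without control replicate 2 or 3 (0.101 to 0.102). tRF-1:29-Lys-CTT-3 passed only without day 3 replicate 3 (otherwise 0.0622 to 0.101), and tRF-1:32-Lys-CTT-2 likewise (otherwise 0.0533 to 0.102).

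Short fragments of 16 nt, which stop in the D arm far before the anticodon, rose for 3 further tRNAs. tRF-1:16-Ala-CGC-3-M3 had 11.9, 39.8 and 13.4 CPM in the day 3 libraries, against 1.63, 7.43 and 5.102 CPM in the control libraries (log2 fold change 2.12, SE 0.632, edgeR adjusted p = 0.0195). tRF-1:16-Leu-AAG-2-M3, shared by 2 anticodons, had 26.8, 41.2 and 53.7 CPM in the day 3 libraries, against 14.7, 17.7 and 23.2 CPM in the control libraries (log2 fold change 1.07, SE 0.380, edgeR adjusted p = 0.0493). tRF-1:16-Ser-GCT-1-M4 had 103, 129 and 167 CPM in the day 3 libraries, against 48.2, 64.01 and 74.2 CPM in the control libraries (log2 fold change 1.06, SE 0.371, edgeR adjusted p = 0.0474). None of the 3 overlapped its controls, but each lost its call when single libraries were left out. The Ala-CGC fragment did so without day 3 replicate 2 at 1.35 (adjusted p = 0.138), without control replicate 1 at 1.83 (adjusted p = 0.0843) and without control replicate 3 at 2.15 (adjusted p = 0.0574). The Leu-AAG fragment kept it only without day 3 replicate 1 (otherwise adjusted p = 0.0829 to 0.166), and the Ser-GCT fragment lost it in all 6 fits (0.0567 to 0.138). Over the 29 5' fragments of 14 to 17 nt, 23 had a log2 fold change above 0 (median 0.75). Over the 13 3' fragments of the same lengths 1 did (median -0.96).

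One mitochondrial fragment rose. tRF-1:29-chrM.Ser-GCT lies at chrM:11613-11641 on the plus strand (GRCm38), at the start of the gene mt-Ts2 (11613 to 11671), a mitochondrial serine tRNA. It had 16.9, 36.5 and 20.1 CPM in the day 3 libraries, against 4.904, 2.29 and 3.71 CPM in the control libraries (log2 fold change 2.72, SE 0.742, edgeR adjusted p = 0.0112; without day 3 replicate 2, 2.32 (adjusted p = 0.0587)). All day 3 libraries lay above the controls. The main form of the same tRNA did not pass: tRF-1:22-chrM.Ser-GCT, the most abundant of the tRF-5b class (5' fragments of middle length), had 1273, 1769 and 1055 CPM in the day 3 libraries, against 1583, 718 and 912 CPM in the control libraries, with wide overlap (log2 fold change 0.28, SE 0.440, edgeR adjusted p = 0.649; the sign turned without control replicate 2, at -0.052 (adjusted p = 0.956)).

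Between 2 groups of end positions, long 5' fragments differed in their change at day 3. Counting from the first base of the anticodon, 36 fragments of 28 nt or more ended 1 or 2 nt before it, in the 5' part of the loop; 12 of them rose and 1 fell, with a median log2 fold change of 0.77. Of the 25 that ended at the first base of the anticodon 1 rose and 0 fell, with a median of -0.039, equal to that of all fragments, and a range of -1.16 to 1.66. By length, 11 of 27 nuclear 5' fragments of 32 nt rose (median 0.89), and 0 of 16 of 34 nt rose or fell (median -0.17). Under the scaling to listed counts that moves all medians up, the 34 nt median was 0.14 below that of all fragments and the 32 nt median 0.91 above it. Against 10% of all fragments and 20 of 146 5' fragments higher, 11 of 27 is the larger share. The 27 include the near relatives of valine and lysine named above. Of the 21 from amino acids other than glycine 9 rose.

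The same contrast was seen within single tRNAs. Among 12 nuclear parents listed at both 32 and 34 nt, the log2 ratio of 32 nt to 34 nt counts was higher at day 3 in 10, with a median difference of 0.77; this ratio was chosen after the values by length were seen. For Lys-CTT-3 it was 1.16, 1.87 and 0.53 in the day 3 libraries, against -0.52, -1.51 and -1.33 in the control libraries. Every day 3 library held more of the 32 nt form, and every control library more of the 34 nt form. For Val-AAC-1 it was 6.13, 6.83 and 6.19 in the day 3 libraries, against 5.32, 5.17 and 5.50 in the control libraries, without overlap. The 32 nt form of Val-AAC-1 has a sequence shared with Val-CAC-2, whose 34 nt form is listed apart, so this ratio is not of a single tRNA. In 6 of the 12 parents (Ala-CGC-5, Glu-CTC-2, Lys-CTT-2, Lys-CTT-3, Lys-TTT-1 and Val-AAC-1) all day 3 libraries were above all controls, and in 0 all were below. The 32 nt form of Lys-CTT-2 differs by 1 base from that of Lys-CTT-3 and was at most 0.907% of it, so these parents may not be independent. The parents Asp-GTC-1 (difference -0.60) and Glu-TTC-1 (-0.39) went the other way, with overlap. Summed over tRNAs other than Gly-GCC, 5' counts of 32 and 33 nt over those of 30 and 31 nt gave a log2 ratio of 1.001, 1.51 and 1.66 in the day 3 libraries, against 0.85, 0.74 and 0.84 in the control libraries (exact permutation p = 0.1). This sum runs across tRNAs and is not a ratio within single ones. Abundant sequences such as tRF-1:32-Val-AAC-1-M2 and tRF-1:32-Lys-CTT-3, which both rose, weigh most in it. Mean length moved both ways: the count-weighted mean length of 28 nt or more was greater at day 3 in 11 of 23 parents and smaller in 12, and for Lys-CTT-3 it was 32.3, 32.1 and 32.5 nt in the day 3 libraries, against 32.8, 33.2 and 33.2 nt in the control libraries.

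**Figure D3:**
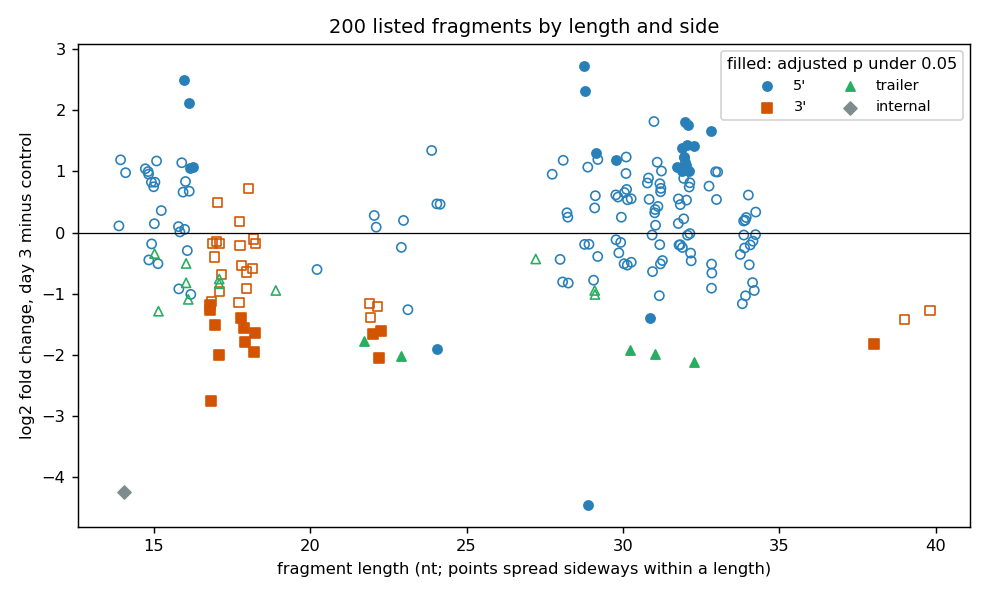
Log2 fold change (day 3 minus control, vertical axis) of the 200 listed fragments by length in nt (horizontal axis, points spread sideways within a length); shape and colour give the side of the tRNA, and filled points passed the threshold. The 5' fragments that rose gather at 16 nt and at 32 nt, the 3' fragments and trailers lie mostly below 0 at each of their lengths, and no 5' fragment of 34 nt is filled.

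On the 3' side, 4 of 5 fragments of alanine tRNAs fell. tRF-54:75-Ala-CGC-1-M2 had 12.4, 12.6 and 25.6 CPM in the day 3 libraries, against 71.9, 70.3 and 58.4 CPM in the control libraries (log2 fold change -2.04, SE 0.374, edgeR adjusted p = 0.00271). tRF-58:75-Ala-CGC-1-M4, the most abundant tRF-3a (the shorter 3' class), had 55.7, 57.99 and 98.9 CPM in the day 3 libraries, against 160.2, 166 and 218 CPM in the control libraries (log2 fold change -1.40). tRF-58:75-Ala-AGC-2-M2 had 12.9, 9.35 and 19.5 CPM in the day 3 libraries, against 40.9, 41.1 and 44.1 CPM in the control libraries (log2 fold change -1.64, SE 0.420, edgeR adjusted p = 0.00770). None of these overlapped the controls, and day 3 replicate 3 was the highest of its group in each. tRF-54:75-Ala-AGC-2 fell by 1.65 on the log2 scale. The first 3 of these alanine sequences are shared by tRNAs of 2 anticodons, so Ala-AGC and Ala-CGC are not fully separate. With single libraries left out, the Ala-AGC-2-M2 fragment missed the threshold without day 3 replicate 2, at -1.41 (adjusted p = 0.0583). tRF-58:75-Ala-CGC-1-M4 missed it without day 3 replicate 1, day 3 replicate 2 or control replicate 3 (adjusted p = 0.0583 to 0.0676). tRF-54:75-Ala-AGC-2 missed it without day 3 replicate 1 or 2 or control replicate 1 or 3 (0.0653 to 0.104), while tRF-54:75-Ala-CGC-1-M2 passed throughout.

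Leucine, cysteine and glycine followed. tRF-68:85-Leu-AAG-1-M4 had 40.3, 50.97 and 59.2 CPM in the day 3 libraries, against 158, 157 and 187 CPM in the control libraries (log2 fold change -1.78, SE 0.351, edgeR adjusted p = 0.00271). tRF-59:75-Cys-GCA-2-M4 had 6.96, 15.4 and 13.4 CPM in the day 3 libraries, against 43.3, 41.1 and 54.7 CPM in the control libraries (log2 fold change -1.999, SE 0.423, edgeR adjusted p = 0.00337). Both sets of day 3 values lay well below all controls, and both calls held with each library left out. For Gly-CCC, with 2 5' fragments that rose, 3 fragments of the 3' end fell. tRF-57:74-Gly-CCC-2-M6 had 7.45, 5.61 and 7.93 CPM in the day 3 libraries, against 22.9, 29.7 and 27.4 CPM in the control libraries (log2 fold change -1.95, SE 0.443, edgeR adjusted p = 0.00427). tRF-53:74-Gly-CCC-2-M4, the most abundant tRF-3b (the longer 3' class), had 26.3, 21.5 and 47.6 CPM in the day 3 libraries, against 58.9, 109.7 and 115 CPM in the control libraries (log2 fold change -1.61). Again the groups were apart. tRF-58:74-Gly-CCC-2-M6 fell by 1.52 on the log2 scale and lost its call without day 3 replicate 2 (-1.24 (adjusted p = 0.0568)) or control replicate 3 (-1.39 (adjusted p = 0.0501)). The deposited table places each of the 3 on tRNAs of 2 anticodons, so Gly-CCC stands for Gly-CCC and a second glycine tRNA.

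Glutamine, phenylalanine and tryptophan each had a 3' fragment of 17 or 18 nt that fell. tRF-59:75-Gln-CTG-2 had 39.3, 43.5 and 42.7 CPM in the day 3 libraries, against 72.7, 98.9 and 109 CPM in the control libraries (log2 fold change -1.19, SE 0.321, edgeR adjusted p = 0.0111). tRF-60:76-Phe-GAA-1-M3 had 3.48, 0.468 and 3.05 CPM in the day 3 libraries, against 14.7, 9.14 and 22.3 CPM in the control libraries (log2 fold change -2.75, SE 0.684, edgeR adjusted p = 0.00770), which at day 3 is a handful of reads per library. tRF-58:75-Trp-CCA-1-M5 had 5.96, 4.21 and 9.77 CPM in the day 3 libraries, against 11.4, 26.3 and 19.5 CPM in the control libraries (log2 fold change -1.56, SE 0.480, edgeR adjusted p = 0.0230). No group overlapped, though the Trp-CCA values came close. Without control replicate 3 the Gln-CTG-2 value was -1.08 (adjusted p = 0.0693) and the Phe-GAA value -2.39 (adjusted p = 0.0501); the Trp-CCA fragment missed the threshold without day 3 replicate 1 or 2 or control replicate 2 or 3 (adjusted p = 0.0574 to 0.102). Fragments of tyrosine, threonine and proline 3' ends did not pass. Of the 7 of these, 1 had a log2 fold change above 0.

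A pair of mitochondrial tRNAs had 3' fragments that fell. tiRNA-32:69-chrM.His-GTG-M1-37:C>A matches chrM:11576-11612 on the plus strand (GRCm38), in the 3' part of mt-Th (11546 to 11612, a mitochondrial histidine tRNA), and closes with an A beyond the gene. The next base of the genome, the first of mt-Ts2 at 11613, is also A. Whether the closing A was encoded or added was not tested. It had 2.98, 2.81 and 8.55 CPM in the day 3 libraries, against 12.3, 20.002 and 16.2 CPM in the control libraries (log2 fold change -1.82, SE 0.541, edgeR adjusted p = 0.0195). The full CCA form, tiRNA-32:71-chrM.His-GTG, is the most abundant tiRNA-3. It had 34.3, 45.8 and 59.8 CPM in the day 3 libraries, against 96.5, 114 and 117 CPM in the control libraries and just missed the threshold (log2 fold change -1.27, SE 0.462, edgeR adjusted p = 0.0505). It passed under 7 alternatives, among them DESeq2 (adjusted p = 0.0349), limma-voom (0.0432) and mapped totals without factors (0.0479). tRF-54:70-chrM.Trp-TCA, whose encoded part is chrM:5003-5016 on the plus strand at the end of mt-Tw (4950 to 5016), had 10.9, 7.48 and 6.71 CPM in the day 3 libraries, against 22.9, 12.6 and 24.1 CPM in the control libraries (log2 fold change -1.27, SE 0.451, edgeR adjusted p = 0.0496). All day 3 libraries of these 3 fragments lay below their controls. The His-GTG call was lost without day 3 replicate 1 or 2 or control replicate 3 (adjusted p = 0.0501 to 0.0667). The Trp-TCA call was lost in 4 of the 6 such fits (0.110 to 0.141) and under 6 other settings, among them DESeq2.

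Trailers fell for threonine and arginine. tRF-+1:T32-Thr-CGT-1 had 12.4, 8.42 and 15.3 CPM in the day 3 libraries, against 78.5, 36.004 and 34.8 CPM in the control libraries (log2 fold change -2.11, SE 0.416, edgeR adjusted p = 0.00271). Its shorter forms tRF-+1:T31-Thr-CGT-1 and tRF-+1:T30-Thr-CGT-1 had log2 fold changes of -1.99 and -1.92 and also fell; these are lengths of the same trailer, not separate genes. tRF-+1:T23-Arg-ACG-1-3 had 7.95, 6.55 and 7.32 CPM in the day 3 libraries, against 38.4, 26.9 and 21.3 CPM in the control libraries (log2 fold change -2.01, SE 0.411, edgeR adjusted p = 0.00319), and tRF-+1:T22-Arg-ACG-1-3 fell by 1.77. Control replicate 1 was the highest library in both trailers, and the day 3 libraries lay below every control. All 5 calls held with each library left out. The most abundant trailer, tRF-+1:T16-iMet-CAT-1 of the initiator methionine tRNA, did not pass: it had 72.6, 59.4 and 123 CPM in the day 3 libraries, against 147, 111 and 88.6 CPM in the control libraries, with overlap (log2 fold change -0.50, SE 0.399, edgeR adjusted p = 0.337). The other 10 trailers had log2 fold changes of -1.28 to -0.34. Relative to 5' fragments outside Gly-GCC, the log2 ratio of trailer counts was -6.91, -7.21 and -6.52 in the day 3 libraries, against -4.90, -5.88 and -5.94 in the control libraries (exact permutation p = 0.1).

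Outside these groups 4 fragments fell. tRF-1:31-iMet-CAT-1-M2, from the 5' side of the initiator methionine tRNA that starts translation, had 21.9, 11.7 and 6.71 CPM in the day 3 libraries, against 30.2, 40.6 and 35.7 CPM in the control libraries (log2 fold change -1.40, SE 0.447, edgeR adjusted p = 0.0290). tRF-1:24-chrM.Ser-TGA, at chrM:6915-6938 on the minus strand (GRCm38) in mt-Ts1 (6870 to 6938), had 5.47, 7.48 and 3.05 CPM in the day 3 libraries, against 17.2, 22.3 and 20.9 CPM in the control libraries (log2 fold change -1.90, SE 0.485, edgeR adjusted p = 0.00770). Day 3 lay below the controls in both. The iMet call was lost without day 3 replicate 2 or 3 or control replicate 1 or 3 (adjusted p = 0.0660 to 0.0941), and the Ser-TGA call held. Another pair rested on a single control library. The internal fragment tRF-30:43-Gln-CTG-1-M5 had 0.497, 1.403 and 0.610 CPM in the day 3 libraries, against 4.904, 46.9 and 1.39 CPM in the control libraries. tRF-1:29-Val-CAC-4 had 0.497, 0.935 and 0.610 CPM in the day 3 libraries, against 9.81, 40.6 and 0 CPM in the control libraries. In both, control replicate 2 was far above the other controls, and the groups overlapped. Their log2 fold changes of -4.24 and -4.45 became -1.81 (adjusted p = 0.233) and -2.69 (adjusted p = 0.102) without it.

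Both ends of the same tRNA could be followed for 15 isoacceptors. Not every ratio is of one isoacceptor: all fragments behind both ends of Gly-ACC, Leu-AAG, Leu-CAA, Pro-AGG and Ser-AGA, the 5' end of Ala-AGC and the 3' ends of Ala-CGC and Gly-CCC have sequences shared with tRNAs of other anticodons. The log2 ratio of summed 5' counts to summed 3' counts (0.5 reads added to each) was higher at day 3 in 13 of them, with a median difference of 1.40. In 12 all day 3 libraries exceeded all controls, and in 0 all were below. For Cys-GCA it was 1.41, 0.70 and 0.39 in the day 3 libraries, against -1.13, -1.69 and -2.16 in the control libraries. For Ala-AGC it was 1.14, 2.38 and 1.13 in the day 3 libraries, against -1.55, -0.17 and -0.995 in the control libraries. In both tRNAs 3' counts exceeded 5' counts in the controls, and 5' counts exceeded 3' counts at day 3. For Leu-AAG it was 2.18, 2.19 and 2.32 in the day 3 libraries, against -0.23, 0.68 and 0.37 in the control libraries. For Ala-CGC it was 5.01, 4.46 and 3.28 in the day 3 libraries, against 2.21, 2.28 and 1.82 in the control libraries. The ratio uses no scaling between libraries. The 3 without separation were Gly-GCC, Tyr-GTA and Gly-ACC, whose differences were 0.72, -0.072 and -0.48. Over all fragments outside Gly-GCC the log2 ratio of 5' to 3' counts was 5.54, 5.20 and 4.97 in the day 3 libraries, against 4.17, 4.31 and 3.92 in the control libraries (exact permutation p = 0.1).

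**Figure D4:**
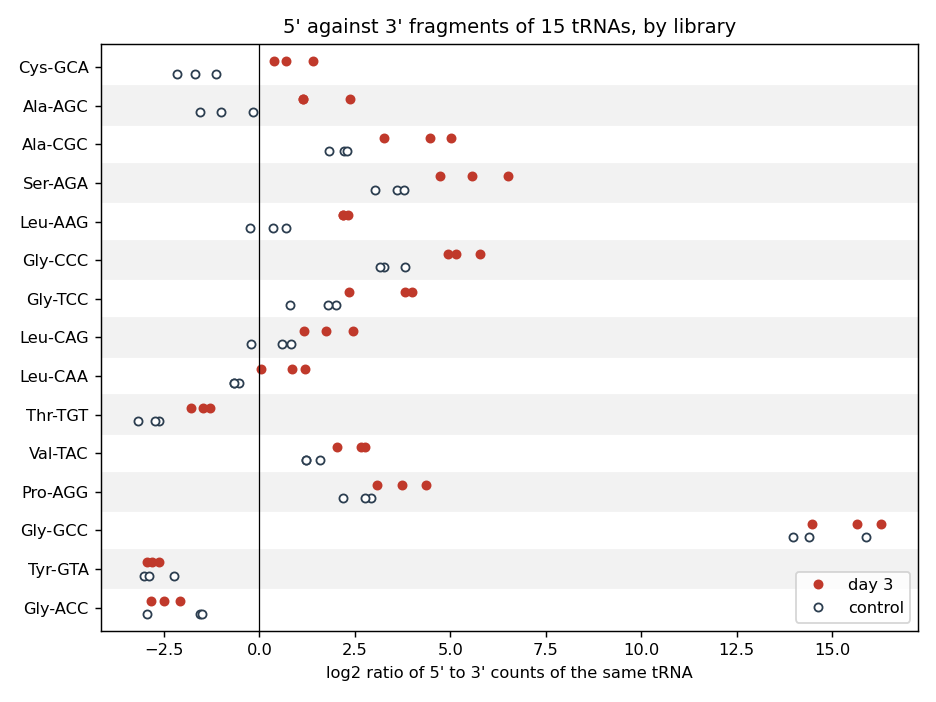
Log2 ratio of summed 5' to summed 3' counts (horizontal axis) for the 15 tRNAs with both, in each of the 3 day 3 libraries (filled points) and 3 control libraries (open points). The day 3 points lie to the right of all control points in 12 rows and overlap them for Gly-GCC, Tyr-GTA and Gly-ACC.

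Fragments of neighbouring lengths from the same tRNA are not independent, so counts were also summed per tRNA and side, which gave 59 sums. Of these 22 passed (37.3%), 10 higher at day 3 (16.9%) and 12 lower (20.3%). All 10 that rose were 5' sums, out of 32. Of 20 3' sums 8 fell and 0 rose, and of 6 trailer sums 2 fell, of which the Arg-ACG trailer missed the threshold without control replicate 1 (adjusted p = 0.0844) or day 3 replicate 2 (0.0564); the others that fell were 1 5' sum and the internal one. Their median log2 fold change was 0.52 for 5', -0.94 for 3' and -0.59 for trailer sums, against -0.0043 over all 59. Without factors on the mapped totals the median of all sums moved by -0.25, and 3 were higher and 14 lower, with medians of 0.24 for 5' and -1.22 for 3' sums.

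Several tRNAs passed at this level although no single 5' fragment of theirs had. Ser-AGA 5' fragments summed to 363, 745 and 883 CPM in the day 3 libraries, against 315, 369 and 275 CPM in the control libraries (log2 fold change 1.27, SE 0.385, adjusted p = 0.00668). Leu-CAA 5' fragments summed to 211, 89.8 and 223 CPM in the day 3 libraries, against 72.7, 96.01 and 111 CPM in the control libraries (log2 fold change 1.19, SE 0.406, adjusted p = 0.0175). In both, CPM values of the groups overlapped. Pro-TGG, Ala-AGC, Leu-CAG and Thr-TGT 5' sums rose as well, Ala-AGC and Leu-CAG also with overlap, with log2 fold changes of 1.23, 1.04, 0.98 and 1.45. Leu-CAG and Thr-TGT each have 1 listed 5' fragment, so nothing was summed: in the fit over fragments the same counts, with other scaling factors, spread estimates and adjustment, gave 0.68 on the log2 scale for tRF-1:16-Leu-CAG-1-M3 (edgeR adjusted p = 0.156) and 1.15 for tRF-1:32-Thr-TGT-3 (edgeR adjusted p = 0.0888). Val-AAC 5' fragments summed to 10104, 10236 and 10083 CPM in the day 3 libraries, against 4683, 6200.2 and 5215 CPM in the control libraries (log2 fold change 1.20, SE 0.335, adjusted p = 0.00578), with no overlap. Pro-AGG, Glu-CTC and Ala-CGC 5' sums completed the 10, at 1.30, 1.26 and 1.003. Ala-AGC and Ala-CGC were the 2 tRNAs with a 5' sum that rose and a 3' sum that fell, the 3' sums having log2 fold changes of -1.35 and -1.21. In contrast the Lys-CTT, Gly-GCC, Glu-TTC and Val-CAC 5' sums did not pass (0.38, -0.12, 0.36 and 0.19), although single lengths of each had. The same held for the 5' sums of Gly-CCC (0.58), Gly-TCC (0.81), Leu-AAG (0.59), Ser-GCT (0.14) and mitochondrial Ser-GCT (0.55). The abundant tRF-1:32-Val-AAC-1-M2, whose sequence Val-CAC-2 shares, was counted in the Val-AAC sum, so the Val-AAC and Val-CAC sums are not fully separate. Of all sums, 4 passed in every alternative that tested them: Cys-GCA 3', Gly-CCC 3', Leu-AAG 3' and the Thr-CGT trailer. Of the 5' sums, Glu-CTC lost its call only on mapped totals without factors, and Val-AAC only when fragments shared by more than 1 anticodon were left out, a choice made after seeing the data (log2 fold change 0.86, adjusted p = 0.0561). The other 8 5' sums that rose lost theirs when at least 1 library was left out.

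**Figure D5:**
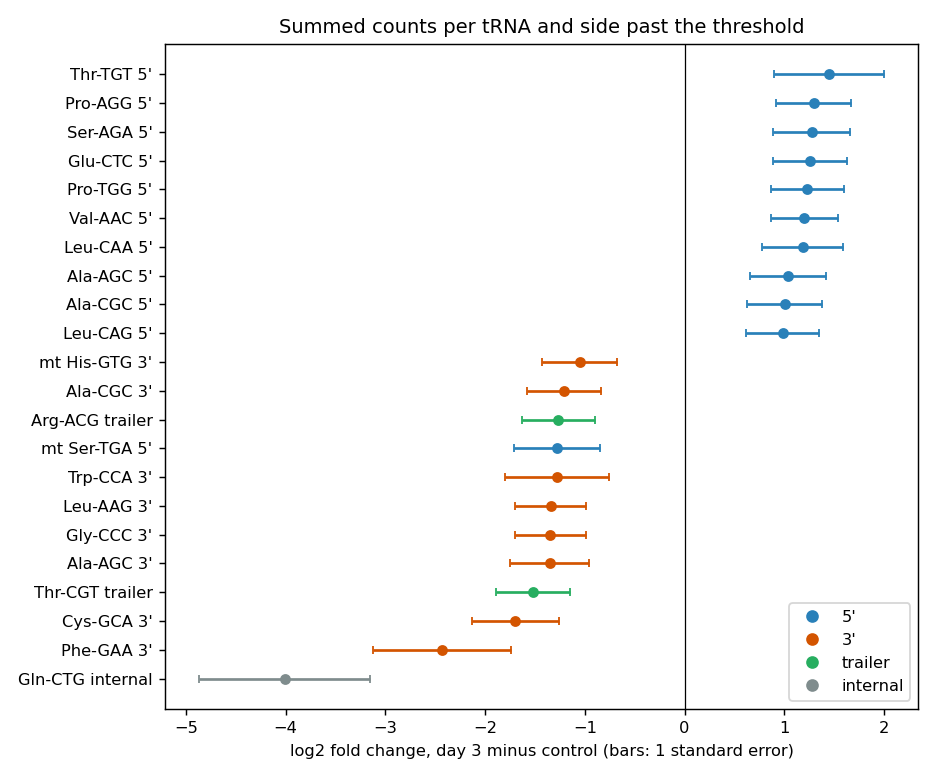
Log2 fold change (day 3 minus control, horizontal axis) of the 22 sums per tRNA and side that passed the threshold; bars are 1 standard error and colours give the side. The 10 sums above 0 are all 5' sums, and 8 of the 12 below 0 are 3' sums.

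The most abundant fragments of the 5' classes did not pass the test. tRF-1:31-Gly-GCC-2-M3, the most abundant fragment of all and of the tRF-5c class (long 5' fragments, which stop short of the anticodon except those of mitochondrial Ser-GCT of 30 nt and longer), had 333939, 317363 and 322538 CPM in the day 3 libraries, against 503688, 484432 and 486137 CPM in the control libraries. The groups did not overlap, but the test did not pass (log2 fold change -0.64, SE 0.267, edgeR adjusted p = 0.0811). It passed on mapped totals without factors (-0.60, adjusted p = 0.0231) and with the 2 groups fitted alone (-0.69, adjusted p = 0.0135). tiRNA-1:33-Gly-GCC-2-M3, the most abundant tiRNA-5, had 7558, 8555 and 12600.2 CPM in the day 3 libraries, against 10617, 15352 and 14079.9 CPM in the control libraries, with overlap (log2 fold change -0.51, SE 0.314, edgeR adjusted p = 0.218). tRF-1:15-Ser-GCT-1-M4, the most abundant tRF-5a (short 5' fragments), had 379, 200.2 and 419 CPM in the day 3 libraries, against 327, 534 and 539.9 CPM in the control libraries, again with overlap (log2 fold change -0.51, SE 0.504, edgeR adjusted p = 0.462). Of the listed counts, Gly-GCC fragments together took 92.9, 93.2 and 91.3% in the day 3 libraries, against 95.5, 94.7 and 95.2% in the control libraries, a difference of -2.71 percentage points (exact permutation p = 0.1). Relative to mapped reads the groups lay further apart. The 15 Gly-GCC 5' fragments summed to 576569, 544011 and 511399 CPM at day 3, against 723670, 720302 and 720962 CPM in the controls. All day 3 values of this sum lay below all controls. In the fit over sums its log2 fold change was -0.12 (edgeR adjusted p = 0.645). RefSeq (GRCm38) lists 14 Gly-GCC genes on 7 chromosomes.

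Direction also differed between tRNAs of which few or no fragments passed. All 12 nuclear alanine 5' fragments had log2 fold changes above 0 (0.25 to 2.12, median 0.73, 1 past the threshold), and so had all 10 leucine 5' fragments (median 0.67, 1 past the threshold), under each of the 5 scalings. All 7 histidine 5' fragments lay below 0 (median -0.48, 0 past the threshold), except that 2 lay above 0 when scaled to the listed counts without factors. The 17 Glu-TTC 5' fragments had a median of -0.20, with 1 that rose. Many of these fragments are lengths of the same tRNA, such as 6 of His-GTG-2 and 4 each of Ala-CGC-2 and Ala-CGC-5. Such lengths are not independent members. The medians of these groups stand beside 0.39 over all 146 5' fragments and -0.039 over all fragments. Of the counts outside Gly-GCC, mitochondrial fragments took 4.33, 6.804 and 3.81% in the day 3 libraries, against 7.45, 3.57 and 4.83% in the control libraries, with overlap (exact permutation p = 0.8). Outside Gly-GCC, short 5' fragments of up to 22 nt set against those of 28 nt or more gave a log2 ratio of -3.52, -3.03 and -3.29 in the day 3 libraries, against -3.08, -3.56 and -3.28 in the control libraries (exact permutation p = 0.8). The last base of a 5' fragment gave medians of 0.46 for A, 0.42 for C, 0.40 for G and 0.30 for T.

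Day 7 libraries of the same series show where the named fragments stood at the later time. Day 7 minus day 3 gave 69 calls of 200 (34.5%). Both comparisons use the day 3 libraries, so a high or low value there moves them in opposite directions, and they are not independent. Among fragments past the threshold in both, the 10 with the smallest p for day 7 minus day 3 are given. tRF-+1:T23-Arg-ACG-1-3 had log2 fold changes of 2.46 for day 7 minus day 3 and -2.01 for day 3 minus control. It stood at 53.98, 21.8 and 27.6 CPM in the day 7 libraries. tRF-1:29-Gly-GCC-1 had log2 fold changes of -2.17 for day 7 minus day 3 and 2.31 for day 3 minus control, with 156, 177 and 188 CPM in the day 7 libraries. tRF-54:75-Ala-CGC-1-M2 had log2 fold changes of 1.89 for day 7 minus day 3 and -2.04 for day 3 minus control, with 78.1, 49.1 and 28.97 CPM in the day 7 libraries. In these 3 the day 7 values lay away from day 3 on the side of the controls. For the other 7, the values for day 7 minus day 3 were 2.21 for tRF-54:70-chrM.Trp-TCA, 1.51 for tRF-68:85-Leu-AAG-1-M4, 4.37 for tRF-30:43-Gln-CTG-1-M5, -1.58 for tRF-1:16-Leu-AAG-2-M3, -1.53 for tRF-1:32-Glu-CTC-2, 2.33 for tiRNA-32:69-chrM.His-GTG-M1-37:C>A and 2.32 for tRF-+1:T22-Arg-ACG-1-3. Under mapped totals without factors the split of the day 7 minus day 3 calls was 30 higher and 39 lower, against 46 and 23 here.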

How the data were processed

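Small RNA libraries covered the RPE-choroid-sclera complex of mice; day 3 after laser and control, 3 libraries each, are compared here; day 7 enters the fits and is shown beside them. Per the labels' protocols, TRIzol RNA was treated before library preparation to remove 3' amino acids and cyclic phosphates, add 5' phosphates and demethylate m1A and m3C. FastQC, Bowtie and edgeR and the build mm10 are named in the submitters' processing notes, without versions. The authors deposited raw read counts per fragment and CPM, per the file headers; CPM was relative to mapped reads, since count divided by CPM gave 1 total per library. All 200 listed fragments reached at least 20.1 CPM in some library, 74 match more than 1 tRNA gene, and no column of another series was met (0).

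Counts were tested with edgeR 4.0.16 (R 4.3.3) by its quasi-likelihood test, on mapped totals with TMM factors (trimmed mean of M values, 0.749 to 1.14), with 1 mean per group over all 9 libraries and Benjamini-Hochberg adjustment over 200 fragments, or over 59 sums per tRNA and side. Its low-count filter removed 0. The coefficient of variation between libraries was 34.9% (31.7% for sums). Single ratios were tested by exact two-sided permutation over 20 assignments. The code was tested on simulated data. Alternatives were other scalings, filters, DESeq2 1.42.0, limma-voom (limma 3.58.1), a replicate block, 2 groups only, and leaving out each library. Named fragments are the one with the smallest p per tRNA and side with a call, all other calls, the most abundant of each class, and at most 10 called against day 7 too. Members and lists were chosen with earlier results of these data known. Mitochondrial positions are from GENCODE (GRCm38) and gene numbers from RefSeq (GRCm38).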

Additional observations from a re-analysis of the deposited data

Results flagged for a closer look

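Day 7 and day 3 levels of 32 named fragments differed by the test of that difference itself (edgeR adjusted p below 0.05). The values are log2 fold changes of day 7 minus day 3. Both comparisons use the day 3 libraries, so the values are not independent of those for day 3 minus control.

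Of the 3' fragments that fell at day 3, 13 were higher at day 7 than at day 3, by 1.89 for tRF-54:75-Ala-CGC-1-M2, 1.51 for tRF-68:85-Leu-AAG-1-M4, 1.52 for tRF-59:75-Cys-GCA-2-M4, 1.51 for tRF-57:74-Gly-CCC-2-M6, 1.02 for tRF-53:74-Gly-CCC-2-M4, 2.30 for tRF-60:76-Phe-GAA-1-M3, 1.59 for tRF-58:75-Ala-AGC-2-M2, 1.24 for tRF-58:74-Gly-CCC-2-M6, 0.92 for tRF-59:75-Gln-CTG-2, 1.34 for tRF-58:75-Ala-CGC-1-M4, 2.33 for tiRNA-32:69-chrM.His-GTG-M1-37:C>A, 1.67 for tRF-58:75-Trp-CCA-1-M5 and 2.21 for tRF-54:70-chrM.Trp-TCA. All 5 trailers that fell were higher at day 7, by 1.34 for tRF-+1:T32-Thr-CGT-1, 2.46 for tRF-+1:T23-Arg-ACG-1-3, 1.48 for tRF-+1:T31-Thr-CGT-1, 1.39 for tRF-+1:T30-Thr-CGT-1 and 2.32 for tRF-+1:T22-Arg-ACG-1-3. The other fragments that fell gave 4.37 for tRF-30:43-Gln-CTG-1-M5, 4.11 for tRF-1:29-Val-CAC-4 and 1.70 for tRF-1:24-chrM.Ser-TGA.

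Fragments that rose at day 3 were lower at day 7 than at day 3 in 7 cases, with -2.17 for tRF-1:29-Gly-GCC-1, -1.27 for tRF-1:32-Glu-TTC-3, -1.53 for tRF-1:32-Glu-CTC-2, -0.97 for tRF-1:30-Lys-CTT-3, -1.97 for tRF-1:16-Ala-CGC-3-M3, -0.96 for tRF-1:32-Val-AAC-5 and -1.58 for tRF-1:16-Leu-AAG-2-M3. Fragments that did not pass at day 3 gave 2.06 for tiRNA-32:71-chrM.His-GTG, 0.81 for tRF-1:31-Gly-GCC-2-M3, 2.04 for tiRNA-1:33-Gly-GCC-2-M3 and 1.65 for tRF-+1:T16-iMet-CAT-1. On mapped totals without factors the median of day 7 minus day 3 over all fragments moved by -0.27, and each value here is relative to that choice of scaling.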

How the results depend on the processing

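With at least 100 CPM on average, 70 fragments were tested and 22 passed, of which 12 were among the 43. Fitting the 2 groups alone gave 67 calls (29 higher, 38 lower), and an adjusted p below 0.1 gave 83. Leaving out single libraries gave 22 to 54. By scaling, the calls split into 27 higher and 22 lower (RLE factors), 33 and 22 (listed counts with TMM) and 49 and 14 (listed counts without factors, chosen after seeing the data); DESeq2 gave 33 and 25. Sums gave 9 calls with at least 100 CPM, 10 when fragments of more than 1 anticodon were left out, and 12 to 17 without single libraries. Day 7 minus day 3 gave 31 with at least 100 CPM and 39 to 72 without single libraries; its 46 higher and 23 lower became 37 and 35 (RLE), 31 and 37 (listed counts) and 9 and 63 (listed counts without factors).

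The log2 ratio of short to long 5' counts without Gly-GCC (0.027) changed sign at -0.073 with at least 100 CPM and ran from -0.10 to 0.15 without single libraries. The percent of listed counts outside Gly-GCC in mitochondrial fragments (-0.302 percentage points) became 0.499 with 1 anticodon only and ran from -1.21 to 0.783 without single libraries. tRF-1:22-chrM.Ser-GCT turned to -0.052 without control replicate 2, in a range up to 0.78 without single libraries. The cause was not tested for any of these. Day 3 and control libraries of the same replicate number had correlations of deviations of 0.049, 0.323 and 0.111. Libraries of different numbers were not compared in this way, so these values do not decide whether the numbers pair libraries. The labels do not say that they do. With the replicate block there were 47 calls over fragments (20 higher, 27 lower), 21 over sums and 64 for day 7 minus day 3. Of the calls, tRF-1:32-Val-AAC-1-M2 (1.01, adjusted p = 0.0639) and the Trp-CCA 3' sum (-1.23, adjusted p = 0.0812) missed the threshold with the block, and tiRNA-32:71-chrM.His-GTG passed it (adjusted p = 0.0382). No call among the 43 changed sign in any alternative. Fragments near 10 CPM rest on few reads per library, which limits their precision.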
